A study of Mus musculus with 6 samples.

Results

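The genes of the integrin and laminin chains were examined in RNA-seq of mouse BMSCs, the adherent cells grown from C57BL/6 bone marrow, after RA or the solvent DMSO alone. The chains were taken by a rule on gene names, chosen with earlier results of these data known. The rule gave 38 of the 25722 genes listed in every library. They comprise 18 integrin alpha chains, 9 integrin beta chains and 11 laminin chains. There were 3 control libraries of wild-type cells in DMSO and 3 libraries of wild-type cells given all-trans RA, for which the labels state 1 μM and 48 h, whereas the study's methods give a lower dose and a shorter time for the RNA-seq. All cultures were kept with 20% serum, 5% oxygen and 10 μM of a ROCK inhibitor, a drug that blocks a kinase acting on the actin cytoskeleton downstream of adhesion. The cells were primary, were used at low passage and were kept for their adherence to the dish. The labels speak of a pair of biological replicates although 3 libraries per group are given, so the p-values measure the spread between these libraries, which may in part be technical.

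Integrins are receptors of an alpha and a beta chain that span the plasma membrane, bind matrix or another cell outside and couple to actin through talin and kindlin inside. Laminins are secreted trimers of an alpha, a beta and a gamma chain that form the sheet of basement membranes and are themselves ligands of several integrins. The beta 2 chain and its partners alpha L (LFA-1), alpha M (Mac-1, or CD11b) and alpha X (CD11c) are restricted to leukocytes, while stromal cells are known for beta 1 with collagen- and fibronectin-binding alpha chains, and for alpha v integrins. RA signals through nuclear receptors that bind DNA repeats with a half-site AGGTCA.

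The total was between 14737636 and 18511905 counts per library, and the 38 chains took between 0.730% and 0.803% of them. At this depth 3 counts corresponded to between 0.162 and 0.204 CPM (counts of a gene scaled to a common library size, by the raw total here and by TMM-scaled totals for the values below). The leading principal component, computed over the 1000 genes of highest variance, held 57.2% of their variance. It put control 2 with RA-treated 1 and 2 (called library set 1 here), and RA-treated 3 with control 1 and 3 (library set 2). Each set holds both treatments, and the labels give no batch that corresponds to it. The label of the cells as mesenchymal was checked with markers. The 14 macrophage markers summed to between 17360 and 19550 CPM in control and between 18030 and 18470 CPM in RA-treated libraries. The 14 stromal markers summed to between 3016 and 5695 CPM in control and between 2191 and 4395 CPM in RA-treated libraries. Of these, Col1a1 had between 414.3 and 1648 CPM, Vim between 513.9 and 1266, Cxcl12 between 368.1 and 577.9 and Pdgfrb between 60.3 and 139.9 CPM. Other stromal markers were low, with Thy1 at most 0.490, Lum at most 0.888 and Nt5e at most 1.12 CPM in any library. Lepr had between 0.479 and 9.48 CPM, Dcn between 2.82 and 5.01, Pdgfra between 6.65 and 24.35 and Ly6a between 17.9 and 39.5 CPM. Markers of neutrophils, T and NK cells, dendritic, erythroid and epithelial cells each summed to at most 7.004 CPM in every library, and those of endothelial, B and megakaryocytic cells to at most 50.5 CPM. Markers of macrophages and part of the listed stromal markers were thus abundant in every library, and the integrins below are those of the culture as a whole. In such bulk samples fewer cells of a type and less RNA per cell cannot be told apart.

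Sequences are shown for 3 chains, because their RA-treated values did not overlap the controls and the stretch just before the RefSeq start lies wholly outside the annotated gene. They are Itgam and Itga8, which were higher after RA, and Itgb5, which was lower. Each is the 250 bases upstream of the start on the gene's own strand (RefSeq, GRCm38.p6), at chr7:128062390-128062639 (plus strand), chr2:12301945-12302194 (minus strand) and chr16:33829415-33829664 (plus strand). Capitals mark GAGGAA on either strand, a longer form of the GGAA core bound by ETS factors such as PU.1, a regulator of myeloid genes. The core GGAA alone was not searched for and is left unmarked where it stands outside GAGGAA, as in Itga8.
Itgam: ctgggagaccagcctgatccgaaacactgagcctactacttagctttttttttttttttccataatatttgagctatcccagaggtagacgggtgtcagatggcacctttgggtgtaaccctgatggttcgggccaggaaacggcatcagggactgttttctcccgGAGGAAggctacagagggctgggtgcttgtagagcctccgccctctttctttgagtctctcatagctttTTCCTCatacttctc
Itga8: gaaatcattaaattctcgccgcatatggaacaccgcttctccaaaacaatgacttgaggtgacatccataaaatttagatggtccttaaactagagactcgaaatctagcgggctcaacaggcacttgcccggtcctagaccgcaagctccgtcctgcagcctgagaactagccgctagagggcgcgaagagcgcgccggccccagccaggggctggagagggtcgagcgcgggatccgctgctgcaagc
Itgb5: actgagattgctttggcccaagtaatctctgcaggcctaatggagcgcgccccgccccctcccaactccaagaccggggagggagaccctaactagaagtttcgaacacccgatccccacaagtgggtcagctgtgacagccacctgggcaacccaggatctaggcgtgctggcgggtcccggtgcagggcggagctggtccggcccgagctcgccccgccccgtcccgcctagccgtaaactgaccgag
Of these, Itgam held 2 copies of GAGGAA, 1 on each strand, and Itga8 and Itgb5 held 0. Of the 38 chains, 24 had an entry in the table of promoters, with 27 starts. GAGGAA stood within 250 bases upstream of 14 of these 27 starts, against 23.3% of all 32851 starts. The half-site AGGTCA stood upstream of 1 of the 27 starts, that of Itgb2l, against 14.0% of all starts. A match or its absence describes the letters of this window only.

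Per kilobase of exon, the leukocyte chains Itgb2, Itgam and Itgal stood highest of all 38, while the other leukocyte chains had at most 0.238 CPM per kb. Itgb2, the beta 2 chain (ENSMUSG00000000290, chromosome 10 from 77530252 to 77565708 of GRCm38), had a mean level of 444.0 ± 105.5 CPM per kb (SD, n = 6 libraries). Itgam had 310.1 ± 33.8 CPM per kb and Itgal 306.7 ± 34.1 CPM per kb, so these neighbours in the order did not differ beyond their spread. Beta 1 (Itgb1, the common partner of matrix-binding alpha chains) followed with 215.9 ± 44.7 CPM per kb, then beta 5 (Itgb5, a partner of alpha v) with 89.9 ± 13.0 CPM per kb. Among the matrix-binding alpha chains, alpha 5 (Itga5, the fibronectin receptor) led with 51.9 ± 17.6 CPM per kb. Itga11 (a collagen receptor of mesenchymal cells, 30.0 ± 17.7), Itga9 (28.7 ± 2.74), Itgav (26.4 ± 6.77), Itga6 (a laminin receptor, 23.3 ± 2.50) and Itga4 (which binds VCAM-1, 12.3 ± 1.60 CPM per kb) came next, and neighbours in this order mostly overlapped. Laminin gamma 1 (Lamc1, 11.5 ± 3.39), beta 1 (Lamb1, 9.34 ± 3.47) and beta 2 (Lamb2, 7.96 ± 3.20 CPM per kb) were the highest laminin chains, while the alpha chains that complete the trimer were lower, with Lama5 at 2.23 ± 0.839 and Lama4 at 1.73 ± 0.731 CPM per kb. Of the remaining chains, Itga3 had a mean of 1.14 ± 0.320 CPM per kb and each other had at most 0.796 CPM per kb. Divided by the longest transcript instead, Itga6 had 48.8 and Lamb1 16.0 CPM per kb, so that Itga6 passed Itga9, Itgav and Itga11 and Lamb1 passed Lamc1. Itgav, with 40.2, then passed Itga11 with 30.9 and Itga9 with 31.5 CPM per kb. Lama4, with 3.45, passed Lama5 with 2.23, and Itga1, with 1.35, passed Itga3 with 1.34 CPM per kb. Itgal, with 386.0 CPM per kb, then passed Itgam with 333.0 CPM per kb.

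**Figure D1:**
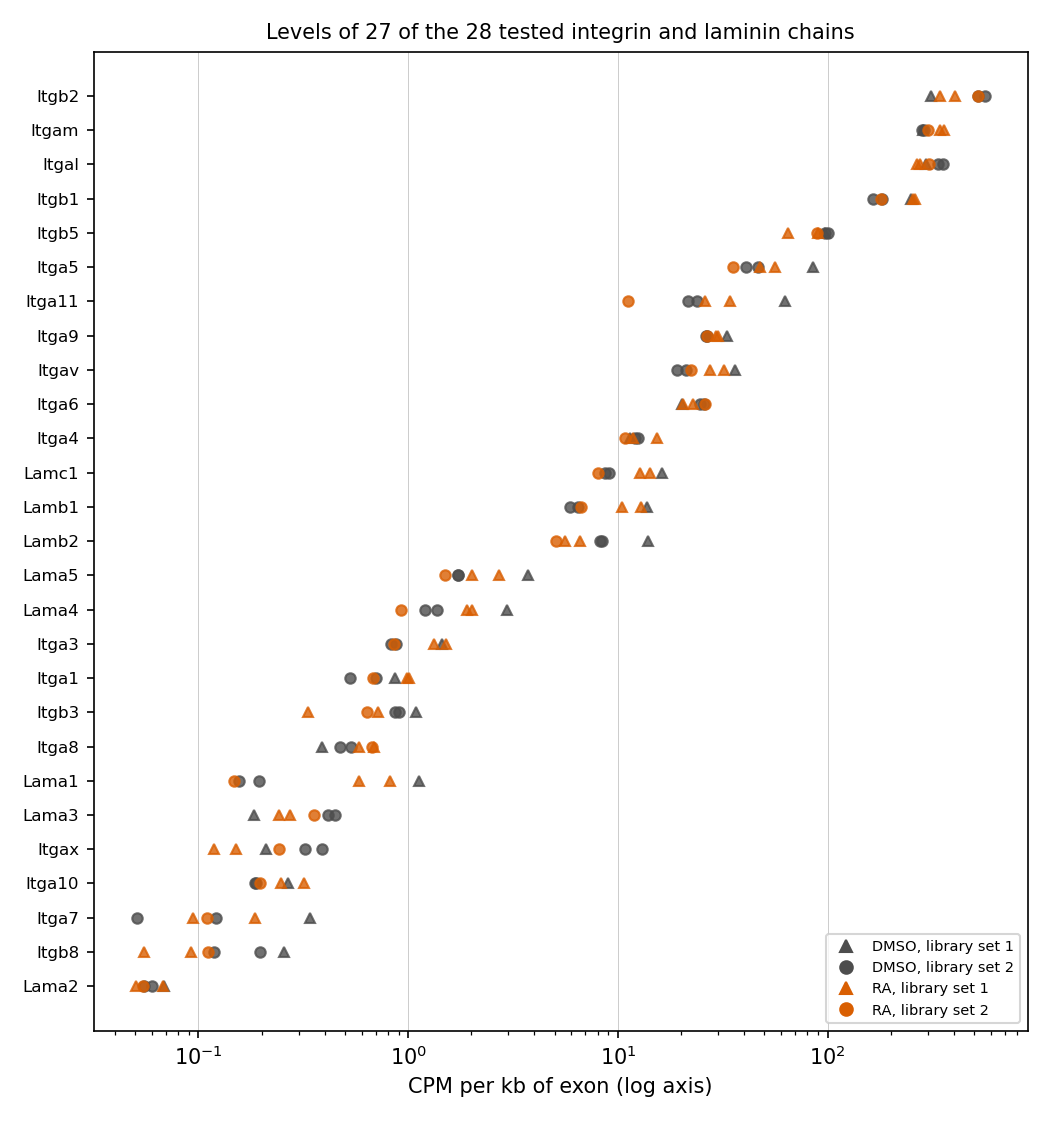
Level of 27 of the 28 tested chains in each of the 6 libraries, in CPM per kb of exon on a log axis. Color gives the treatment and marker shape the library set. Itgb2, Itgam and Itgal stand at the top, between 268.3 and 563.9 CPM per kb in every library.

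The genes of the beta 2 partners lie near each other on chromosome 7, and their levels were far apart. The starts of Itgam and Itgax are 66.9 kb apart, and that of Itgad follows 24.8 kb after Itgax. Itgam had a mean of 310.1 CPM per kb, Itgax 0.238 and Itgad 0.00703 CPM per kb, the last from 3 counts in all 6 libraries together. Itgal, 766.4 kb before Itgam, had 306.7 CPM per kb. Thus CD11b and the LFA-1 alpha chain were abundant at the RNA level while CD11c, a marker of dendritic cells and some macrophages, had only 9 to 27 counts per library. Exons of Itgam overlap those of Gm49368 on the same strand, which had 107 to 180 counts per library against 20234 to 31160 for Itgam.

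The 8 leukocyte chains made up between 59.7% and 74.3% of the summed integrin level per kb. In library set 2 the share was 74.3% in control 1, 72.4% in control 3 and 73.6% in RA-treated 3. In set 1 it was 59.7% in control 2, 64.1% in RA-treated 1 and 67.6% in RA-treated 2. Every library of set 1 was thus below every library of set 2, whichever the treatment, while the control mean of 68.8 ± 7.94% and the RA-treated mean of 68.4 ± 4.80% (SD, n = 3) differed by less than their spread. The partners alpha L, M, X and D summed to between 579.9 and 638.2 CPM per kb, while beta 2 itself ran from 310.7 to 563.9 CPM per kb. The ratio of beta 2 to its partners was 0.536 in control 2, 0.561 in RA-treated 1 and 0.633 in RA-treated 2, and between 0.833 and 0.884 in the libraries of set 2. Laminin chains together had 52.0 CPM per kb in control 2 and between 22.7 and 39.6 CPM per kb in the other libraries.

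**Figure D2:**
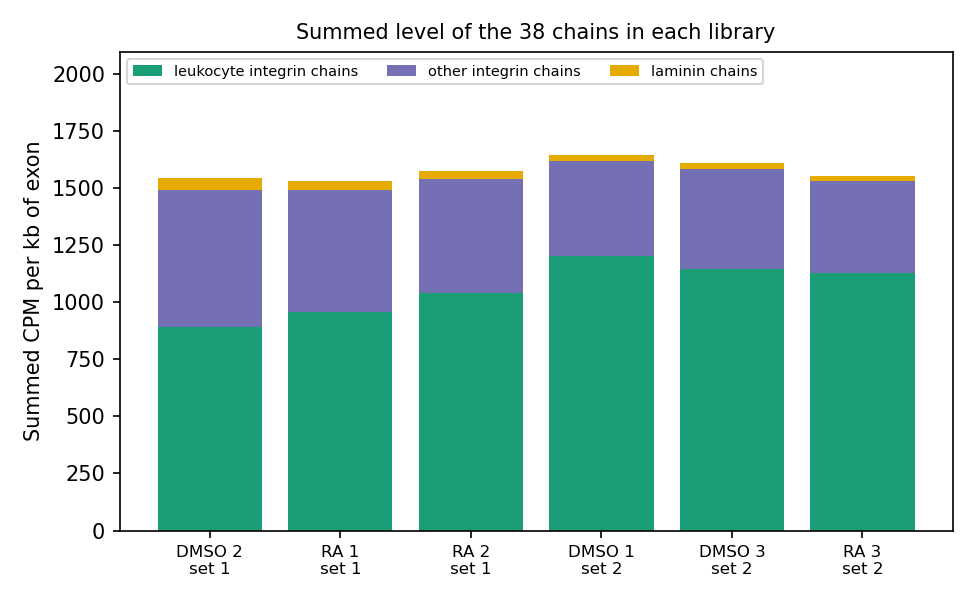
Summed level in CPM per kb of exon for the leukocyte integrin, other integrin and laminin chains in each library, ordered by library set. The leukocyte part is between 890.7 and 1042 in set 1 and between 1128 and 1202 in set 2.

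Most tested leukocyte chains were lower, and most other tested chains higher, in library set 1. Because the sets were read from the most variable genes of these same libraries, the differences are descriptions and carry no test. Of the 4 leukocyte chains with enough counts to be tested (Itgal, Itgam, Itgax and Itgb2), 3 were lower in every library of set 1 than in every library of set 2 and 0 were higher. Of the 15 other tested integrin chains, 8 were higher in every library of set 1 (Itga1, Itga3, Itga5, Itga9, Itga10, Itga11, Itgav and Itgb1) and 1, Itga6, was lower. Of the 9 tested laminin chains, 6 were higher in set 1 and 1, Lama3, was lower. Over all 13842 tested genes, 23.3% were higher and 24.4% lower in every library of set 1. The stromal markers summed to 5695, 4395 and 3037 CPM in control 2, RA-treated 1 and RA-treated 2, and to 3016, 3270 and 2191 CPM in control 1, control 3 and RA-treated 3. Of the 14 stromal markers 6 were higher and 0 lower in every library of set 1. Of the 14 macrophage markers 9 were lower in every library of set 1, such as C1qb with 1061, 1103 and 1092 CPM against 1865, 1936 and 1945 CPM in set 2, and 3 were higher, such as Lyz2 with 9779, 8722 and 9184 CPM against 5543, 6629 and 6076 CPM. These examples were chosen after their values were seen, and the sums of the macrophage markers overlapped between the sets. Of the 7 B cell markers listed, 3 were lower and 1 higher, and of the 6 T and NK cell markers 1 was lower and 0 were higher. The part of these markers in the differences between the sets was not tested.

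**Figure D3:**
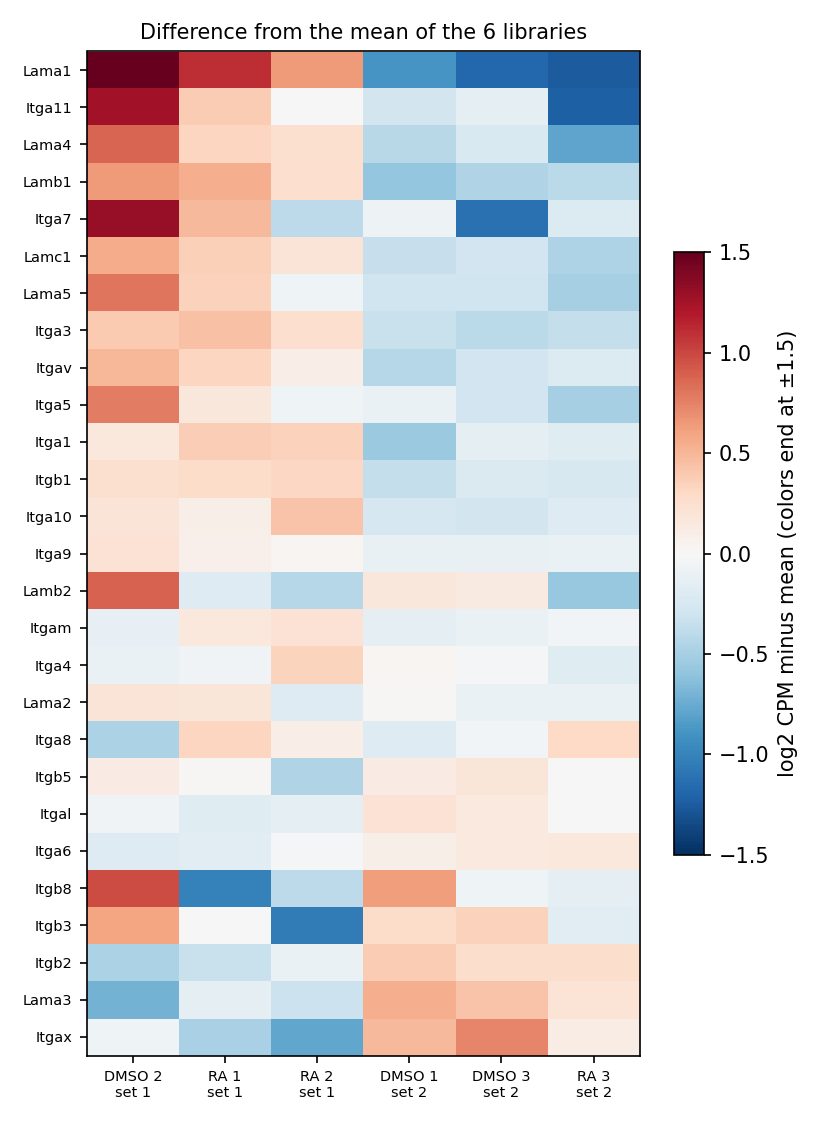
Log2 CPM of 27 of the 28 tested chains in each library minus its mean over the 6 libraries, ordered by the difference between the library sets, with red above and blue below the mean. Most laminin and matrix-binding chains are red in set 1, and Itgb2, Itgax and Lama3 are blue there.

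Some of these differences were large. Lama1, an alpha chain of the embryonic laminins, had 10.9 CPM in control 2, 7.89 in RA-treated 1 and 5.64 in RA-treated 2, and 1.89, 1.51 and 1.43 CPM in control 1, control 3 and RA-treated 3. Lama4, the alpha chain of vascular and mesenchymal laminins, had 35.6, 24.3 and 22.9 CPM in the libraries of set 1 and 14.5, 16.5 and 11.1 CPM in those of set 2. Itgb2 went the other way, with 948.3, 1049 and 1232 CPM in set 1 and 1721, 1590 and 1589 CPM in set 2. In each case the libraries of a set stood together, across the treatments.

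The comparison the study was designed for, RA-treated against control BMSCs, was made for the 28 chains that passed the expression filter. Of these, 0 passed both thresholds for a call, an edgeR adjusted p under 0.05 and a change of 1.5-fold or more, where 0.0433% of all 13842 tested genes were called. At an unadjusted p under 0.05 there were 3 of the 28 (10.7%), all lower after RA, against 5.25% of all tested genes, 2.89% higher and 2.36% lower after RA. This number was 1 without control 1 or without RA-treated 2, where the share of all tested genes was 2.85% and 2.94%. In 6 of the 28 chains (21.4%) the RA-treated libraries lay all above or all below the controls, against 12.6% of all tested genes, 5.71% above and 6.87% below. These were Itgam and Itga8, higher after RA, and Lamb2, Itgb8, Itgb3 and Itgb5, lower after RA. Fold changes had a log2 median of -0.03 over the 19 tested integrin chains and of -0.08 for the 9 tested laminin chains, beside -0.02 for all tested genes. Without control 2 the medians were 0.10 for the integrin and 0.35 for the laminin chains, and without RA-treated 3 that of the laminin chains was 0.09. In the fit that included the library set the laminin median was -0.34. The smallest edgeR adjusted p of any chain was 0.664, that of Lamb2. With DESeq2 0 chains were called, against 0.983% of all tested genes, and 4 had an unadjusted p under 0.05, against 5.93%. Of the 14 macrophage markers 0 had an edgeR unadjusted p under 0.05, while of the 11 tested stromal markers 3 were higher and 1 lower after RA at that level. Lepr (mean of 0.483 CPM in control), Dcn (3.04 CPM) and Cxcl12 (408.1 CPM) were the higher ones, and Ly6a the lower. The others had an edgeR unadjusted p above 0.05. Log2 fold changes were -0.58 for Col1a1, -0.56 for Col1a2, -0.41 for Col3a1, -0.24 for Vim and -0.16 for Prrx1. They were 0.83 for Pdgfra and 0.36 for Pdgfrb. The part of these markers in the chains' values was not tested.

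**Figure D4:**
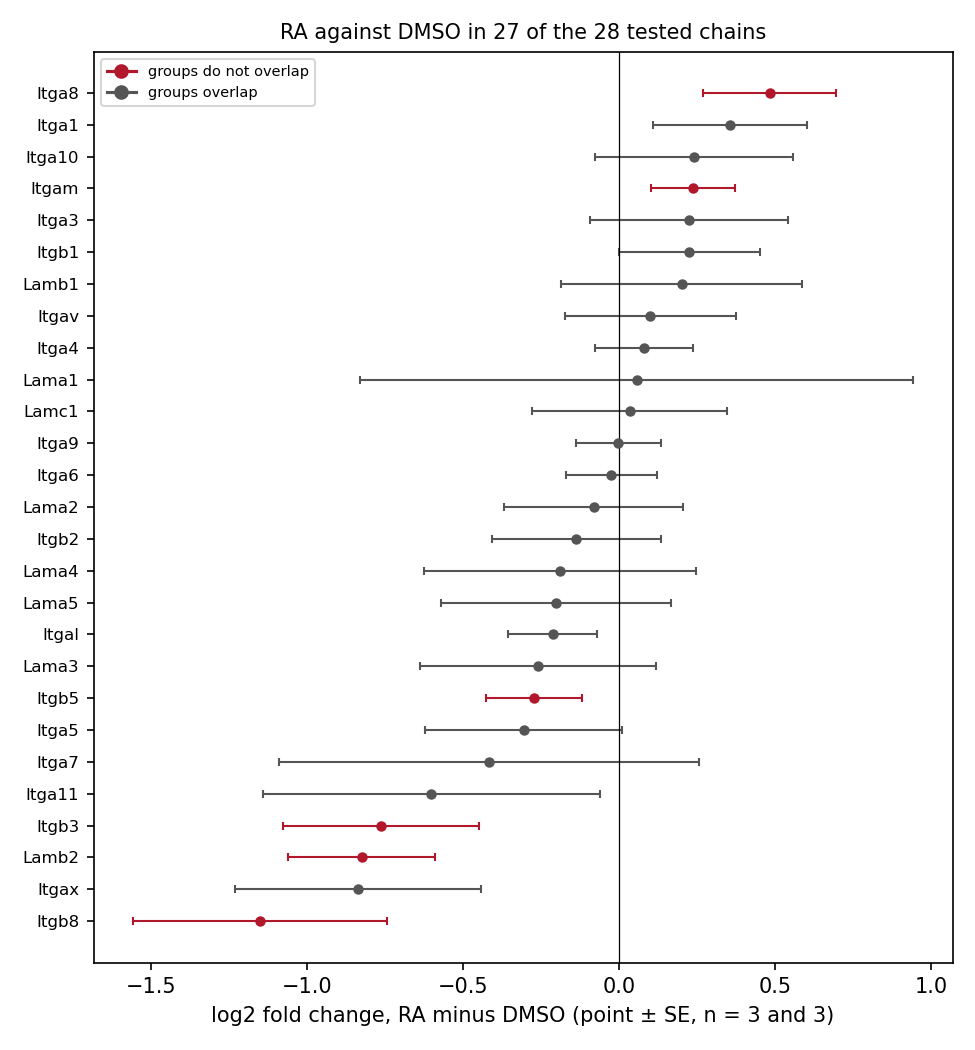
Log2 fold change of 27 of the 28 tested chains, RA minus DMSO, with its standard error from edgeR (n = 3 libraries per group). Red marks the 6 chains whose groups did not overlap, and the values run from -1.15 (Itgb8) to 0.48 (Itga8).

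Among the leukocyte chains, Itgam (ENSMUSG00000030786, chromosome 7 from 128062640 to 128118491) stood higher in every RA-treated library. It had 1417, 1429 and 1447 CPM in control 1 to 3 and 1732, 1809 and 1513 CPM in RA-treated 1 to 3. The controls were close together, and RA-treated 3, the library of set 2, lay only just above them. The log2 fold change was 0.24 ± 0.13 (SE, edgeR unadjusted p = 0.124, adjusted p = 0.795). It was 0.31 within library set 1 and 0.08 within set 2.

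Itgal, the LFA-1 alpha chain that binds ICAMs (ENSMUSG00000030830, chromosome 7 from 127296260 to 127335138), had 2337, 1940 and 2216 CPM in control and 1762, 1823 and 2011 CPM after RA. Control 2 lay below RA-treated 3, so the groups overlapped, and the log2 fold change was -0.21 ± 0.14 (SE, edgeR adjusted p = 0.795). Within the sets it was -0.11 and -0.18. The ratio of Itgam to Itgal per kb was 0.793, 0.963 and 0.854 in control and 1.29, 1.30 and 0.984 after RA. The RA-treated libraries were therefore all above the controls in this ratio, RA-treated 3 only just so. For 3 libraries against 3 the exact permutation test cannot give a two-sided p under 0.1.

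Itgax had 1.54, 1.01 and 1.86 CPM in control and 0.723, 0.571 and 1.16 CPM after RA, with a log2 fold change of -0.84 ± 0.39 (SE, edgeR adjusted p = 0.795). The groups overlapped, since control 2 lay below RA-treated 3, and the values within the sets were -0.63 and -0.53. Itgb2 overlapped widely between the groups, with a log2 fold change of -0.14 ± 0.27 (SE, edgeR adjusted p = 0.903), 0.26 within set 1 and -0.06 within set 2. Itgb7, the beta chain of gut-homing alpha 4 beta 7, had 1, 2 and 7 counts in control and 12, 8 and 2 counts after RA and was not tested. Itgae, its other partner, had 1 to 5 counts per library.

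Of the beta chains that are not restricted to leukocytes, 3 of the 4 tested had all RA-treated libraries below all controls, where 6.87% of all tested genes did so. Itgb8, which pairs with alpha v and is known for activating latent TGF-beta (ENSMUSG00000025321, chromosome 12 from 119158022 to 119238802), had 2.17, 2.82 and 1.31 CPM in control and 0.611, 1.01 and 1.23 CPM after RA. Control 3 lay just above RA-treated 3, and the counts were low, between 11 and 53 per library. The log2 fold change was -1.15 ± 0.41 (SE, edgeR unadjusted p = 0.0268, adjusted p = 0.795), -1.80 within set 1 and -0.45 within set 2.

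Itgb3, the beta chain of the vitronectin receptor and of the platelet fibrinogen receptor (ENSMUSG00000020689, chromosome 11 from 104608000 to 104670476), had 5.11, 6.43 and 5.36 CPM in control and 4.22, 1.97 and 3.75 CPM after RA. RA-treated 2 was the lowest of the 6 libraries. The log2 fold change was -0.76 ± 0.32 (SE, edgeR unadjusted p = 0.0473, adjusted p = 0.795), -1.15 within set 1 and -0.48 within set 2. Without RA-treated 2 it was -0.50. Itga2b, its platelet partner, had 4 to 10 counts per library and was not tested.

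Itgb5 (ENSMUSG00000022817, chromosome 16 from 33829665 to 33949338) had 344.8, 345.6 and 358.2 CPM in control and 318.8, 231.2 and 316.8 CPM after RA. The controls were within a few percent of each other and RA-treated 2 stood well below the other RA-treated libraries. The log2 fold change was -0.27 ± 0.15 (SE, edgeR adjusted p = 0.795), -0.35 within set 1 and -0.15 within set 2. Without RA-treated 2 it was -0.14. Itgb1 had 672.7, 1022 and 744.3 CPM in control and 1044, 1071 and 732.7 CPM after RA, a pattern that followed the library sets. Its log2 fold change was 0.22 ± 0.23 (SE, edgeR adjusted p = 0.822), and 0.05 within each set. On leaving out single libraries it lay between 0.10 and 0.44. Beta 1 relative to the sum of its alpha partners was 1.08, 0.993 and 1.20 in control and 1.36, 1.53 and 1.33 after RA, so that here the groups did not overlap.

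Alpha v, the partner of beta 3, beta 5 and beta 8, overlapped between the groups. Itgav had 205.8, 389.4 and 226.2 CPM in control and 344.8, 296.0 and 239.1 CPM after RA. Its log2 fold change was 0.10 ± 0.27 (SE, edgeR adjusted p = 0.932), with -0.29 within set 1 and 0.15 within set 2. Over all libraries the 3 beta chains were lower after RA and the alpha chain they share was not, a difference that was not tested. Within set 1 Itgav was close to Itgb5, which had -0.35 there. For Itgav the fit that included the library set gave -0.07, and leaving out single libraries gave -0.07 to 0.455. Relative to Itga5 per kb, Itgav was 0.411, 0.427 and 0.517 in control and 0.571, 0.577 and 0.631 after RA, again without overlap.

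Alpha 8 (Itga8, a partner of beta 1 that binds nephronectin, ENSMUSG00000026768, chromosome 2 from 12106632 to 12301922) was higher in every RA-treated library. It had 3.50, 2.87 and 3.92 CPM in control and 5.06, 4.31 and 4.98 CPM after RA. The log2 fold change was 0.48 ± 0.21 (SE, edgeR unadjusted p = 0.0603, adjusted p = 0.795), 0.70 within set 1 and 0.42 within set 2. An antisense gene overlaps its exons, and since the strand setting of the counting is not given in the sources used here, reads of the pair cannot be told apart.

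The remaining matrix-binding alpha chains overlapped between the groups. Itga5 had 230.1, 418.4 and 200.8 CPM in control and 277.3, 235.5 and 173.8 CPM after RA, so that control 2 alone stood apart. Its log2 fold change was -0.31 ± 0.32 (SE, edgeR adjusted p = 0.825). Without control 2 it was 0.10, while it was -0.71 within set 1, -0.31 within set 2 and -0.51 in the fit that included the library set (edgeR adjusted p = 0.104). Itga1, a collagen receptor, had a log2 fold change of 0.35 ± 0.25 (SE, edgeR adjusted p = 0.795) and Itga4 of 0.08 ± 0.16 (SE, edgeR adjusted p = 0.906). The value of Itga1 was 0.19 without control 1 and 0.56 without control 2. Itga6 had 182.9 to 234.1 CPM over the 6 libraries, lower in every library of set 1 than in set 2. Its log2 fold change was -0.03 ± 0.15 (SE, edgeR adjusted p = 0.968). The log2 fold changes of Itga3, Itga7, Itga9 and Itga10, which were not chosen for full statistics, lay between -0.42 and 0.24.

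Itga11 showed how the library sets bear on the comparison, and was named after its values were seen. It had 111.1, 322.2 and 122.9 CPM in control and 175.3, 133.6 and 57.3 CPM after RA. Control 2 was the highest and RA-treated 3 the lowest of the 6, and within each set every RA-treated library lay below every control. The log2 fold change was -0.60 ± 0.54 over all libraries (SE, edgeR adjusted p = 0.807), -1.07 within set 1 and -1.03 within set 2. A fit that included the library set gave -1.05 (edgeR adjusted p = 0.00858), and leaving out control 2 gave 0.08. Some abundant stromal markers fell likewise, Col1a1 by -1.05 and -0.87 and Col1a2 by -0.95 and -0.80 within set 1 and set 2. Col3a1, Vim, Prrx1 and Ly6a were also lower within both sets, while Pdgfra, Lepr, Cxcl12 and Dcn were higher within both. The part of these markers in the values of Itga11 was not tested.

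Among the laminin chains, Lamb2 (beta 2, a chain of basement membranes at muscle, nerve and kidney, ENSMUSG00000052911, chromosome 9 from 108479736 to 108490530) had the smallest p. It had 51.3, 84.4 and 50.0 CPM in control and 40.0, 34.0 and 30.8 CPM after RA. The RA-treated libraries were all below the controls, and control 2 was well above the other controls. The mean went from 61.9 ± 19.5 to 34.9 ± 4.70 CPM (SD, n = 3), a log2 fold change of -0.83 ± 0.23 (SE, edgeR unadjusted p = 0.0106, adjusted p = 0.664). It was -1.19 within set 1 and -0.72 within set 2, and -0.96 in the fit that included the library set (edgeR adjusted p = 0.015). Without control 2 it was -0.52.

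Lamb1, the alternative beta chain of these trimers, did not follow Lamb2. It had 58.5, 136.0 and 64.0 CPM in control and 127.3, 103.9 and 65.8 CPM after RA, with a log2 fold change of 0.20 ± 0.39 (SE, edgeR adjusted p = 0.903). That value was 0.71 without control 2 and -0.02 without control 1. The ratio of Lamb2 to Lamb1 per kb was 1.43, 1.01 and 1.27 in control and 0.513, 0.534 and 0.762 after RA. All RA-treated libraries were below all controls in this ratio, in both library sets. A ratio of 3 libraries against 3 again allows no exact two-sided p under 0.1.

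The partner gamma 1 chain, Lamc1, had 72.2, 134.8 and 74.8 CPM in control and 117.1, 104.9 and 66.3 CPM after RA, with a log2 fold change of 0.03 ± 0.31 (SE, edgeR adjusted p = 0.983). Lama4 and Lama5 had log2 fold changes of -0.19 ± 0.43 (SE, edgeR adjusted p = 0.915) and -0.20 ± 0.37 (SE, edgeR adjusted p = 0.894). Both were highest in control 2, without which their values were 0.35 and 0.28. Within the sets Lama4 had -0.59 and -0.47 and Lama5 -0.66 and -0.21, and the fit that included the library set gave -0.54 (edgeR adjusted p = 0.0798) and -0.44 (edgeR adjusted p = 0.264). The laminin beta chains relative to the gamma chains per kb were 1.64, 1.68 and 1.62 in control and 1.36, 1.26 and 1.46 after RA, without overlap. The laminin alpha chains relative to the gamma chains did overlap, from 0.409 to 0.491 in control and from 0.369 to 0.412 after RA, as did Lamb1 relative to Lamc1, from 0.676 to 0.842 and from 0.826 to 0.907. Of 21 sums, shares and ratios of chains computed per library, the groups did not overlap in 5, all of them ratios given here. Within the library sets 7 of the 9 tested laminin chains were lower after RA in both and 0 were higher in both, where 35.0% of all tested genes were lower in both and 30.9% higher in both. For every chain alike, set 1 rests on control 2 as its only control and set 2 on RA-treated 3 as its only RA-treated library. The chains are therefore not separate observations, and without control 2 the median log2 fold change of the tested laminin chains was 0.35. Lama2 and Lama3 were low, at 0.824 to 4.83 CPM, and Lamb3, a chain of epithelial laminins, and Lamc3 had 0 to 3 counts per library.

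**Figure D5:**
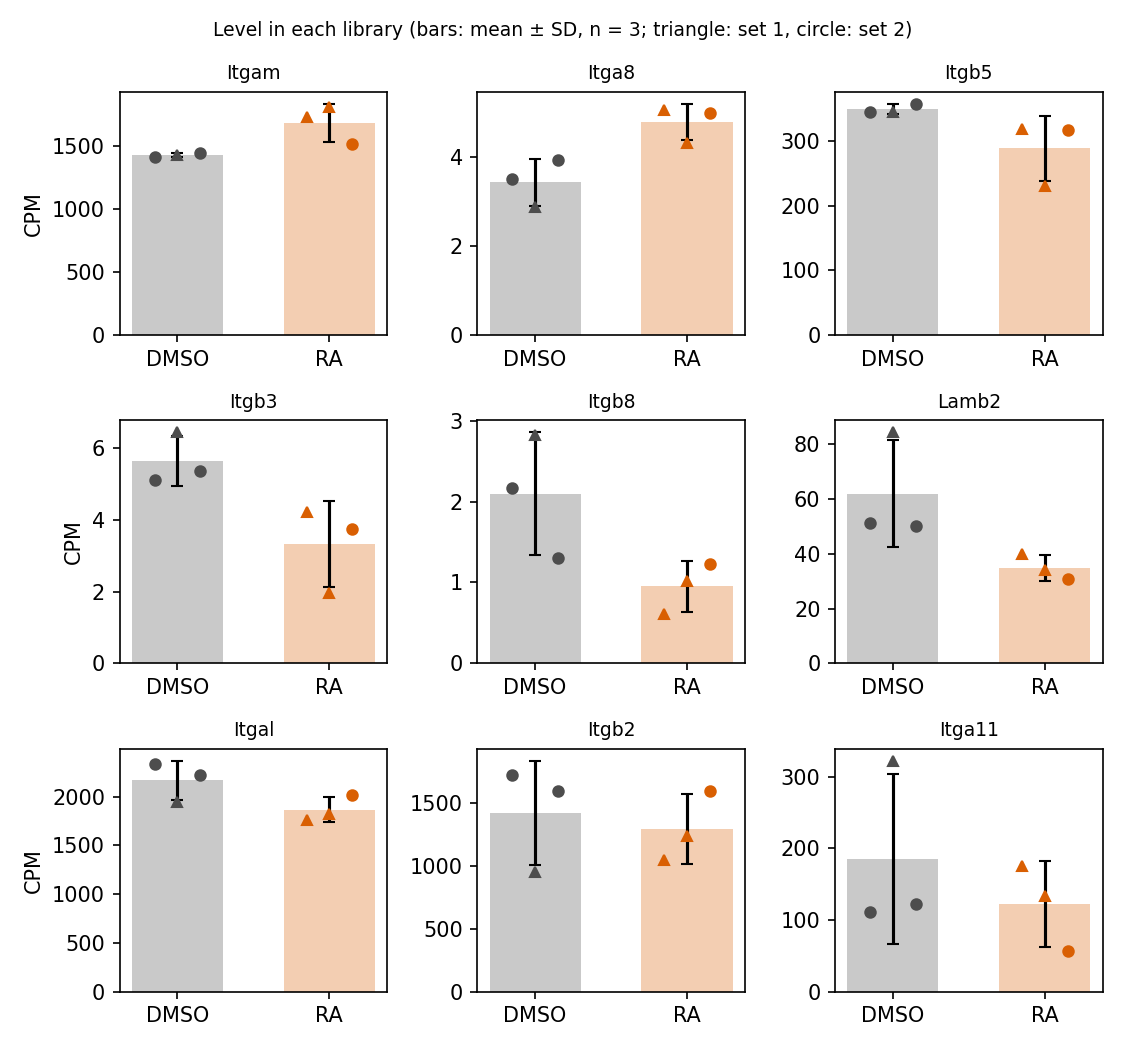
CPM in each library for the 6 chains whose groups did not overlap and for Itgal, Itgb2 and Itga11, with bars for the mean ± SD (n = 3), triangles for library set 1 and circles for set 2. For Itga11 the groups overlap, from 57.3 to 322.2 CPM, although RA-treated points lie below the control points of their own set.

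Allowing for the library set, 2 of the 28 chains were called, Itga11 and Lamb2, both lower after RA, against 1.54% of all tested genes, 0.744% higher and 0.795% lower. At an unadjusted p under 0.05 there were 10 of the 28, 9 of them lower after RA, against 15.1% of all tested genes, 6.7% higher and 8.44% lower. The sets were read from the same libraries, and set 1 holds 1 control and set 2 holds 1 RA-treated library. Of the stromal markers, Col1a1, Col1a2, Col3a1, Vim, Prrx1 and Ly6a were also lower after RA within both sets. Pdgfra, Lepr, Cxcl12 and Dcn were higher within both. Their part in the values of the chains was not tested.

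The chains too low to be tested were Itga2, Itga2b, Itgad, Itgae, Itgb2l, Itgb4, Itgb6, Itgb7, Lamb3 and Lamc3, none of which passed 12 counts in a library. Itgb4 and Itgb6, the beta chains of epithelial cells, had 4 to 9 and 0 to 1 counts. Where a library had a count of 0, this allows a level of up to 0.204 CPM in the smallest library, a limit that covers counting error only.

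The genes that work with these chains were taken from 5 lists with 79 genes, of which 73 were tested. Of them 0 were called and 9 had an unadjusted p under 0.05 (12.3%, against the 5.25% of all tested genes), 4 higher and 5 lower after RA. In 11 of the 73 (15.1%) the groups did not overlap, close to the 12.6% of all tested genes. Of 29 tested adaptors and kinases, 0 were higher and 3 lower at that level. Tns1, a tensin that links beta chains to actin, had 56.0, 54.2 and 55.4 CPM in control and 27.6, 22.4 and 36.8 CPM after RA, a log2 fold change of -0.93 ± 0.19 (SE, edgeR unadjusted p = 0.00203, adjusted p = 0.339). The kinase Src (-0.60, adjusted p = 0.795 with edgeR) and zyxin (Zyx, -0.39, adjusted p = 0.795 with edgeR) were the others, and the RA-treated libraries of all 3 lay below the controls.

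Of the 16 basement membrane partners and other laminin receptors, 2 were higher and 1 lower at an unadjusted p under 0.05. Agrin (Agrn), a proteoglycan that binds laminin, had 83.6, 90.0 and 91.0 CPM in control and 63.0, 47.6 and 63.8 CPM after RA (log2 fold change -0.60, edgeR unadjusted p = 0.00445, adjusted p = 0.444). Fibulin 1 (Fbln1) had a log2 fold change of 1.05 (edgeR adjusted p = 0.415) and netrin 4 (Ntn4), which binds laminin gamma chains, of 1.19 (edgeR adjusted p = 0.782), and both were higher in every RA-treated library.

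Of the 7 tested ligands of leukocyte and alpha 4 integrins, 1 was higher and 1 lower at an unadjusted p under 0.05. Icam2 had a log2 fold change of 1.30 from at most 1.78 CPM (edgeR adjusted p = 0.795), and the junctional ligand F11r one of -0.45 (edgeR adjusted p = 0.795). Icam1, the main ligand of LFA-1, had 275.7, 167.9 and 235.0 CPM in control and 144.9, 145.5 and 205.6 CPM after RA, and its groups overlapped. Of the 13 tested RGD ligands and TGF-beta partners, osteopontin (Spp1) alone had an unadjusted p under 0.05. It had 247.7, 385.4 and 276.3 CPM in control and 439.8, 440.3 and 416.0 CPM after RA (log2 fold change 0.51, edgeR adjusted p = 0.795). Of the 8 other integrin-linked membrane proteins 0 had an unadjusted p under 0.05, and the nearest was the tetraspanin Cd151 at -0.30 (edgeR adjusted p = 0.795).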

How the data were processed

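RNA of 6 BMSC cultures, 3 in DMSO and 3 in RA, was analysed. The authors deposited raw read counts per gene, 1 table per library, without normalization. Bowtie2 2.2.3 and mm10 are named in the submitters' processing notes, while the counting program and strand setting are not given in the sources used here. Coordinates and exon lengths came from GENCODE release M21 (GRCm38), which held 25706 of the 25722 identifiers and all 38 chains under the same name.

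Counts were analysed in R 4.3.3 with edgeR 4.0.16, using filterByExpr, TMM scaling and the quasi-likelihood F test of RA against DMSO without covariates, with Benjamini-Hochberg adjustment over all 13842 tested genes. CPM were TMM-scaled and levels per kb used the length of all exons of a gene. Standard errors were derived from the fold change and the F statistic. The test was tried on simulated data. Replicates were compared by chi-square per degree of freedom, which was 4.56 between controls 1 and 3 and between 28 and 83.1 for every other pair of a group. Controls 1 and 3 were thus far closer than any other pair but still differed by more than counting noise, so all 6 libraries were kept.

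The chains and gene lists were chosen with earlier results of these data known. Full statistics were given for 18 tested chains of set role, whatever their change, and for others with an unadjusted p under 0.05 or groups that did not overlap, which added Itga8. Up to 4 genes per partner list were named, smallest p first. Values within the library sets used log2 CPM with 0.5 counts added. The values of 1 tested chain are not reported here, although it is in the counts. The alternatives were DESeq2 1.42.0, other scalings, other filters, the likelihood ratio test, the replicate number or library set in the model, and leaving out each library.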

Additional observations from a re-analysis of the deposited data

How the results depend on the processing

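Of the comparisons with RA, 0 chains were called under every alternative but the library set as a covariate, which called 2 and gave 10 chains at an unadjusted p under 0.05. That number was 3 over all libraries and lay between 1 and 4 on leaving out single libraries. It was 1 without DMSO replicate 1 or RA replicate 2, where 2.85% and 2.94% of all tested genes had such a p, and 4 and 3 without DMSO replicate 2 or RA replicate 3, where 8.21% and 14.4% had one. The chains whose groups did not overlap were 6, and 6 to 13 on leaving out single libraries. They were 13 without DMSO replicate 2, where 31.3% of all tested genes did not overlap, and 10 without RA replicate 3, where 35.4% did not. The median of the integrin chains ran from -0.12 to 0.101 and that of the laminin chains from -0.201 to 0.345 on leaving out single libraries, and the latter was -0.338 in the fit that included the library set, so that no direction of either median was stable. The replicate block changed no call, with 0 chains called and 2 at an unadjusted p under 0.05. Same-numbered libraries had deviations from their group means correlated at -0.51, 0.343 and 0.572, and 2 of 6 libraries correlated best with their own number. With 3 libraries per group that also split by library set, this check cannot decide whether the numbers pair the samples.

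Several chains changed sign, Itga11 and Itga5 among them. With library size alone Itga6 had a log2 fold change of 0.017. With the library set as a covariate Itgb2 had 0.103, Itga6 0.0703, Itgav -0.069, Lamb1 -0.0701 and Lamc1 -0.216. On leaving out single libraries the values ran from -0.346 to 0.022 for Itgb2, -0.0853 to 0.18 for Itga4, -0.504 to 0.101 for Itga5, -0.12 to 0.0738 for Itga6, -0.0714 to 0.455 for Itgav, -0.936 to 0.0758 for Itga11, -0.423 to 0.345 for Lama4, -0.42 to 0.281 for Lama5, -0.0169 to 0.706 for Lamb1 and -0.127 to 0.402 for Lamc1. The cause was not tested. Levels per kb of the longest transcript, chosen after seeing the data, put Itgal above Itgam (ratio of Itgam to Itgal 0.878 against 1.03) and gave the leukocyte chains 67.6% of the integrin level against 68.6%. The depth limits the chains under 60 counts, Itgb8 and Itgax among them.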
